A study of Homo sapiens with 18 samples.

Results

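The integrated stress response genes examined here are 10 symbols, DDIT3, ATF4, ATF3, TRIB3, CHAC1, ASNS, SESN2, DDIT4, PPP1R15A and SLC7A11, chosen by name from the 26372 symbols of the expression table. All 10 were present. They were chosen after the differences between days and between constructs had been seen in these data, so those differences are given below as a description. A mean of at least 1 FPKM (fragments per kilobase of transcript, scaled to the mapped fragments of the library) over all libraries was needed for a gene to enter the model, and 13785 genes reached it. They included 9 of the 10 members. SLC7A11 did not reach it and is given by its values alone.

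The libraries came from SH-SY5Y, an established human neuroblastoma line, infected with lentivirus made from the FUGW plasmid and carrying ZNHIT3, a zinc-finger protein that the study connects with the assembly of small nucleolar ribonucleoproteins. The construct carried the wild-type sequence (WT), the C14R substitution, or a deletion that the labels give as 251-254, 251-255 or 251-256 in replicates 1, 2 and 3. RNA depleted of ribosomal RNA was sequenced at day 0 and at day 18, with 3 libraries in each of 6 groups and 18 in all. Cells were kept in medium with 15% serum. Induction began 48 hours after infection, in serum-free medium. It held all-trans retinoic acid at 10 μM, dibutyryl cyclic AMP at 2 mM, KCl at 20 mM and the neurotrophin BDNF at 50 ng/ml. All groups carried a ZNHIT3 construct and also kept their own ZNHIT3 gene, so WT means added wild-type ZNHIT3, and no group with an empty vector or without infection was analysed here. The labels do not say that replicates came from separate cultures, so p-values measure only the spread between these samples, which may be technical.

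The integrated stress response is a shared answer to amino acid shortage, unfolded protein in the endoplasmic reticulum, viral double-stranded RNA and haem deficiency. Kinases that sense these stresses phosphorylate the translation factor eIF2, which lowers general protein synthesis while the messenger RNA of the transcription factor ATF4 is translated more. ATF4 then turns on genes for amino acid supply, redox balance and feedback, and, with DDIT3 (also called CHOP), genes linked to cell death when the stress lasts. Because ATF4 is controlled largely at translation, its transcript level is not a readout of its protein.

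Of the 10 members, 9 had an entry in the RefSeq promoter table on GRCh38.p14, and SLC7A11 is named only. The 250 bases before the annotated start are printed for 4 of them: DDIT3, the member in the model whose log2 level differed most between constructs, PPP1R15A, which was higher at day 18, ASNS, which was lower, and CHAC1, a target gene with low values. Capitals mark a match, on either strand, to the core of the C/EBP-ATF response element (TGATGNAA) or to the full cAMP response element (TGACGTCA). All sequences run 5′ to 3′ on the strand of the gene.
DDIT3 (chr12:57520515-57520764, minus strand): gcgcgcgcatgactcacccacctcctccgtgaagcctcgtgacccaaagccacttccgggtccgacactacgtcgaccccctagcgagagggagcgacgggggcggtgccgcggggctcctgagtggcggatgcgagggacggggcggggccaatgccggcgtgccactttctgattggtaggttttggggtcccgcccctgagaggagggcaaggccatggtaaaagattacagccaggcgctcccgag
PPP1R15A (chr19:48872171-48872420, plus strand): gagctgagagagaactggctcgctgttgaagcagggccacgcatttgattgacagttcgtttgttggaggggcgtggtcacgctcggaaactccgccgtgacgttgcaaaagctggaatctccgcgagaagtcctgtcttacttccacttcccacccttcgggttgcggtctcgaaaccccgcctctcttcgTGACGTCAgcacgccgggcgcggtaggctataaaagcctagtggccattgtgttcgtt
ASNS (chr7:97872409-97872658, minus strand): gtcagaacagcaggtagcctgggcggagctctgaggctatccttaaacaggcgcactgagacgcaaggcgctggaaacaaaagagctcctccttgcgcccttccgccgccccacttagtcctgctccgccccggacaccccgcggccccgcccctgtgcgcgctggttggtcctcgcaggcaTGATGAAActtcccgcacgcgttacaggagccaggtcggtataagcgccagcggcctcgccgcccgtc
CHAC1 (chr15:40953221-40953470, plus strand): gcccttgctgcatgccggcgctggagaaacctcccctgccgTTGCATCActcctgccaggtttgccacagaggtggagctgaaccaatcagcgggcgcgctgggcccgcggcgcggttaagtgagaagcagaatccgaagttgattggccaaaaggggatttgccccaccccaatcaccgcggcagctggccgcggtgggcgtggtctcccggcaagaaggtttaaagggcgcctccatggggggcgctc
In ASNS the match TGATGAAA lay 68 to 61 bases before the first of its 2 starts and the window of the other held none, and in CHAC1 the match, read as TTGCATCA because it lies on the opposite strand, lay 209 to 202 bases before its start. DDIT3 also has 2 starts in the table, of which the first is printed, and neither window held a match. ATF3, which is not printed, held TGATGGAA 191 to 184 bases before one of its starts. PPP1R15A held TGACGTCA 58 to 51 bases before its start. Among all 34788 windows of this length in the table, 3.16% held TGATGNAA and 1.64% held TGACGTCA. The endoplasmic reticulum stress response element was searched for in its exact form only. That form was held by 0.0747% of the windows and by none of the members' windows. Forms that differ from it by 1 base were not counted, and the printed DDIT3 window held such a form on each strand. The lack of an exact match therefore does not show that a member lacks the element. These matches describe the letters of the windows only.

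Before the members, the libraries themselves were compared. Absolute depth is unknown because FPKM carry no counts. Relative depth, read from the steps between low values, was 59.1% to 84.6% of the deepest library at day 0 and 81.9% to 100% at day 18. The delivered gene ZNHIT3 averaged 538 FPKM in WT, 424 in C14R and 302.5 in the deletion libraries at day 0, and 1153, 653 and 301.5 at day 18, so the constructs differed in ZNHIT3 level as well as in sequence. C14R replicate 1 of day 18 stood apart, with 24.8 on the second principal component against -8.27 to 9.27 in the others. The 12 markers of noradrenergic neuroblastoma cells fixed for the label check summed to 1580 to 1700 FPKM at day 0, then 3127 to 3361 at day 18. Among them TH, tyrosine hydroxylase, stayed under 1 FPKM in every library of 5 of the 6 groups, all but C14R at day 18. Of the 11 that could be tested in WT, 6 rose and 3 fell (8 and 1 with small RNA genes left out), with CHGB at 90.8 FPKM at day 0 and 963 at day 18 and GATA2 at 98.8 and 26.1. The 10 markers of the mesenchymal cell type that this line can also hold summed to 850 to 1007 FPKM at day 0, then 142 to 150.5 at day 18, and all 8 that could be tested fell between days in each line. Of the markers of Schwann, glial, immune and fibroblast cells, SOX10, GFAP and PTPRC averaged under 1 FPKM in every group, and of the 4 that could be tested 3 rose and 1 fell between days in each line. The part of these shifts in the members' differences between days was not tested, and in whole-culture RNA fewer cells of a type and less RNA per cell cannot be told apart.

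The members did not move as one group between days. DDIT3, ATF3 and PPP1R15A were higher at day 18 in all 3 lines, DDIT4, SESN2, ASNS and ATF4 were lower, and TRIB3 overlapped between days, all on the deposited scale. In WT, 8 of the 9 members in the model passed limma's adjusted p of 0.05, 4 higher and 4 lower, where 72.2% of all tested genes passed (38.2% higher, 34.0% lower). In C14R 7 passed, 3 higher and 4 lower, where 72.9% of all tested genes passed (37.9% higher, 35.0% lower). Deletion libraries also had 7, 3 higher and 4 lower, where 73.0% passed (38.6% higher, 34.4% lower). Most genes thus differed between days, and nothing about the members is read from these counts. The median log2 difference of the members was 0.03 in WT, -0.17 in C14R and -0.08 in the deletion libraries, against 0.03, 0.02 and 0.03 over all tested genes.

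These directions depend on the scale to which FPKM are tied. Leaving out the 2406 symbols of small RNA genes and rescaling the rest moved the median of all tested genes between days to 0.37 in WT, 0.35 in C14R and 0.36 in the deletion libraries, and the share of passing genes that were higher at day 18 in WT went from 52.9% to 79.2%. On that scale the members in WT split into 6 higher and 2 lower. ATF4 and ASNS changed sign in WT, ATF4 and TRIB3 in both variants and CHAC1 in C14R, and these values are given with each gene below. Relative to the median of all genes, ATF4 in WT was at -0.25 on the deposited scale and -0.21 on the other, and ASNS at -0.37 and -0.33.

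**Figure D1:**
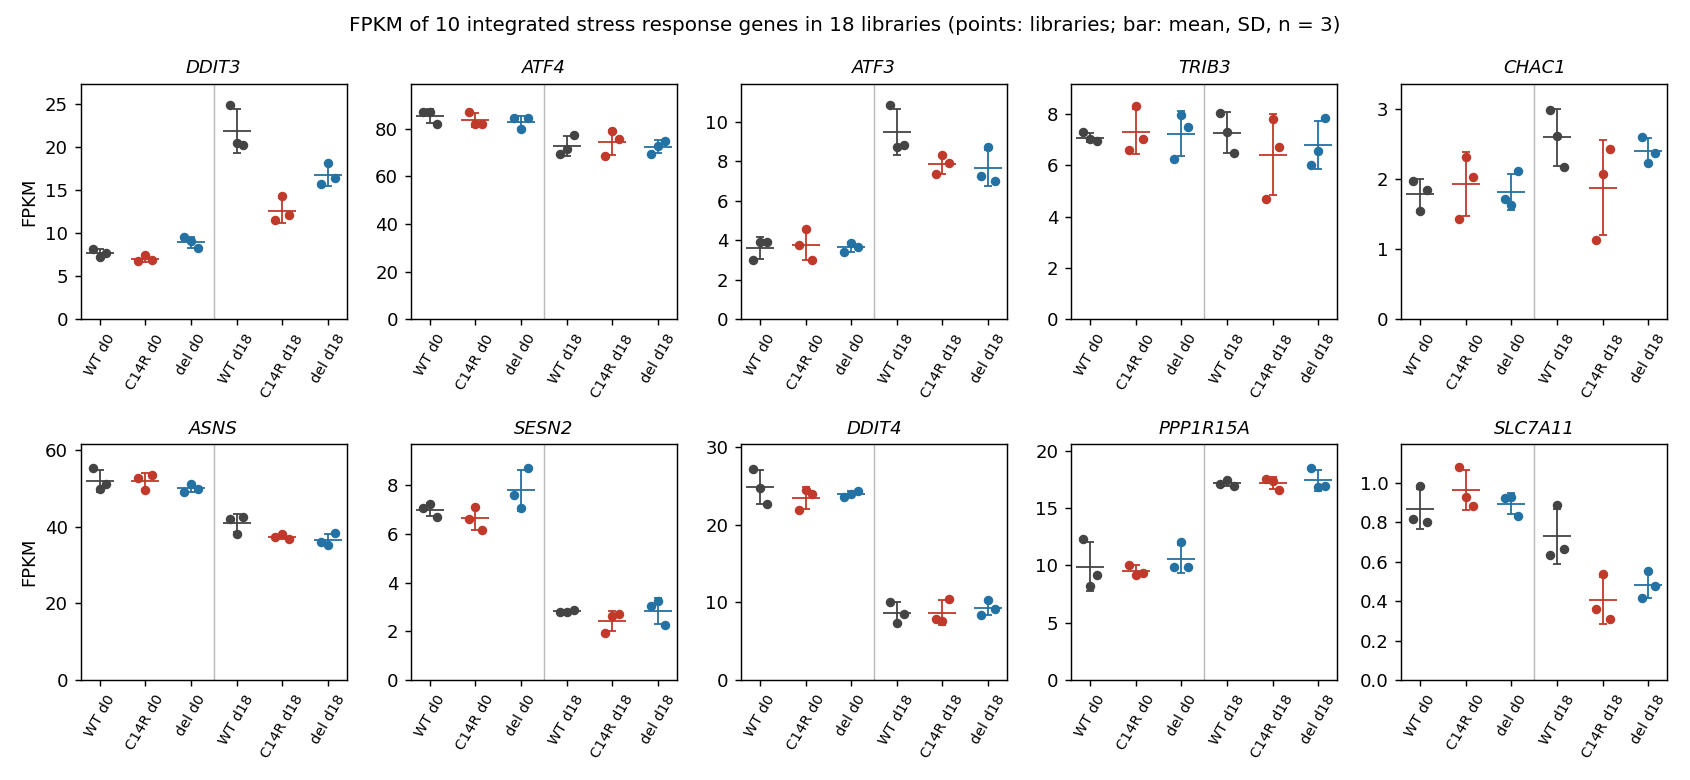
FPKM (y axis, linear, from 0) of each member in the 18 libraries, by construct and day (x axis: WT, C14R and deletion at day 0, then at day 18). Points are libraries and bars the mean and SD of 3, and DDIT3 at day 18 shows the WT libraries at 20.2 to 24.8, above the deletion libraries at 15.8 to 18.2 and the C14R libraries at 11.5 to 14.3.

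ATF4, the transcription factor at the centre of the response (GRCh38 chromosome 22, 39519695 to 39522685, plus strand), was the member with the highest level per transcript length. Its WT libraries had 87.0, 87.1 and 82.0 FPKM at day 0, then 69.4, 71.5 and 77.3 at day 18. C14R libraries had 86.8, 82.0 and 82.0 FPKM and then 68.4, 78.8 and 75.6, and deletion libraries 84.2, 79.6 and 84.4 and then 69.4, 72.7 and 74.9. Within each line all 3 day 18 libraries lay below all 3 day 0 libraries, while the constructs overlapped at both days. The log2 difference between days was -0.23 in WT, -0.17 in C14R and -0.19 in the deletion libraries (SE 0.05 each), but with small RNA genes left out it was 0.16, 0.20 and 0.18. The position of ATF4 relative to day 0 therefore rests on the scaling, whereas its difference from WT at day 18 was small in both variants, at 0.03 in C14R and -0.01 in the deletion libraries.

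DDIT3 encodes a bZIP partner of ATF4 and C/EBP proteins known for its role in stress-induced cell death (GRCh38 chromosome 12, 57516588 to 57521737, minus strand). At day 0 its FPKM were 8.20, 7.21 and 7.75 in WT, 6.82, 7.42 and 6.88 in C14R and 9.55, 9.04 and 8.25 in the deletion libraries. At day 18 they were 24.8, 20.5 and 20.2 in WT, 11.5, 14.3 and 12.1 in C14R and 15.8, 18.2 and 16.4 in the deletion libraries. Every day 18 library of every line lay above every day 0 library. Ordered by mean, the groups ran from C14R at day 0 (7.04 FPKM) through WT (7.72) and deletion (8.95) at day 0 to C14R (12.6), deletion (16.8) and WT (21.9) at day 18. Among neighbours in that order only C14R and WT at day 0 overlapped. The ratio of the day 18 mean to the day 0 mean was 2.83 in WT, 1.80 in C14R and 1.88 in the deletion libraries, with log2 differences of 1.39, 0.76 and 0.84 (SE 0.09 each).

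At day 18 DDIT3 stood at 57.8% of the WT mean in C14R and at 76.8% in deletion libraries, log2 differences of -0.74 and -0.36 (SE 0.09 each). The C14R libraries lay below the deletion libraries at both days, by 0.31 on the log2 scale at day 0 (mean 7.04 against 8.95 FPKM) and by 0.39 at day 18 (12.6 against 16.8). Neither of these differences between variants passed limma's adjusted threshold (adjusted p = 0.267 and 0.318). Nor did the smaller day difference of each variant, -0.63 against WT for C14R (SE 0.12, limma adjusted p = 0.27) and -0.55 for deletion (SE 0.12, adjusted p = 0.305), which is built from the same libraries as the differences above. C14R replicate 1 of day 18, the library that stood apart, had the lowest DDIT3 value of that day, and without it the C14R difference from WT was -0.68. Leaving out each library of the fit in turn gave -0.83 to -0.65. At day 18 WT had the highest mean of both ZNHIT3 (1153 FPKM) and DDIT3 (21.9). C14R libraries had more ZNHIT3 than deletion libraries (653 against 301.5 FPKM) and less DDIT3. The part of the ZNHIT3 level in the DDIT3 differences was not tested.

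DDIT3 shares bases with genes on the other strand: 982 with MARS, a tRNA synthetase gene, and 1028 with MBD6. The highest MBD6 value in any library was 7.652 FPKM. On its own strand DDIT3 shares 2769 of its 5150 bases with AC022506.1, annotated as protein-coding and not analysed here. How reads on shared bases were assigned is not given in the sources used here, so reads of DDIT3 and of these genes cannot be told apart there. MARS at day 18 had 47.4 ± 1.83 FPKM in WT, 44.6 ± 5.91 in C14R and 45.9 ± 1.42 in the deletion libraries (SD, n = 3), and its C14R libraries, at 37.8, 48.5 and 47.5, overlapped those of WT.

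By a fixed rule, the 5 tested genes outside the members whose pattern was most like that of DDIT3 were ZBTB7B, VIP, MGP, TNFRSF10B and PDIA4. Likeness was Pearson's r over the 18 libraries after the mean of each day had been subtracted, and it ranged from 0.863 for PDIA4 to 0.886 for ZBTB7B. These r values are the highest picked from all tested genes outside the members, and they describe libraries that share groups, depth and scaling. ZBTB7B had 8.8 FPKM in WT at day 0, and at day 18 it had 5.1 in WT, 4.0 in C14R and 4.7 in the deletion libraries. In the same order VIP had 144, then 191, 159 and 174, and MGP had 25.4, then 5.86, 3.35 and 4.20. PDIA4, a protein disulfide isomerase of the endoplasmic reticulum, had 98.0 FPKM in WT at day 0, and at day 18 it had 76.4 in WT, 64.6 in C14R and 67.2 in the deletion libraries. TNFRSF10B, a death receptor and known CHOP target, had 52.4 FPKM in WT at day 0, and 24.7, 21.9 and 23.5 at day 18 in the same order. Of the 5, VIP alone had a higher mean at day 18 than at day 0, as DDIT3 did, and the other 4 had lower means in every line. Among the members the r with DDIT3 was 0.53 for CHAC1 and SESN2, 0.49 for ATF3, 0.45 for TRIB3, 0.39 for ASNS, 0.18 for PPP1R15A, 0.14 for DDIT4 and -0.13 for ATF4.

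ATF3, a bZIP factor induced by many stresses (GRCh38 chromosome 1, 212565334 to 212620777, plus strand), was higher at day 18 in all lines. WT libraries had 2.99, 3.92 and 3.92 FPKM at day 0, then 10.8, 8.74 and 8.84 at day 18. C14R libraries had 3.77, 4.57 and 3.01 FPKM and then 7.34, 8.30 and 7.91, and deletion libraries 3.41, 3.89 and 3.67 and then 7.23, 8.71 and 7.01. The days did not overlap in any line, and the WT libraries of day 18 lay above those of both variants, narrowly for deletion, where the highest library had 8.71 FPKM against 8.74 in the lowest WT library. The day difference on the log2 scale was 1.18 in WT, 0.90 in C14R and 0.89 in the deletion libraries (SE 0.12 each). At day 18 ATF3 differed from WT by -0.24 in C14R and by -0.28 in the deletion libraries.

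**Figure D2:**
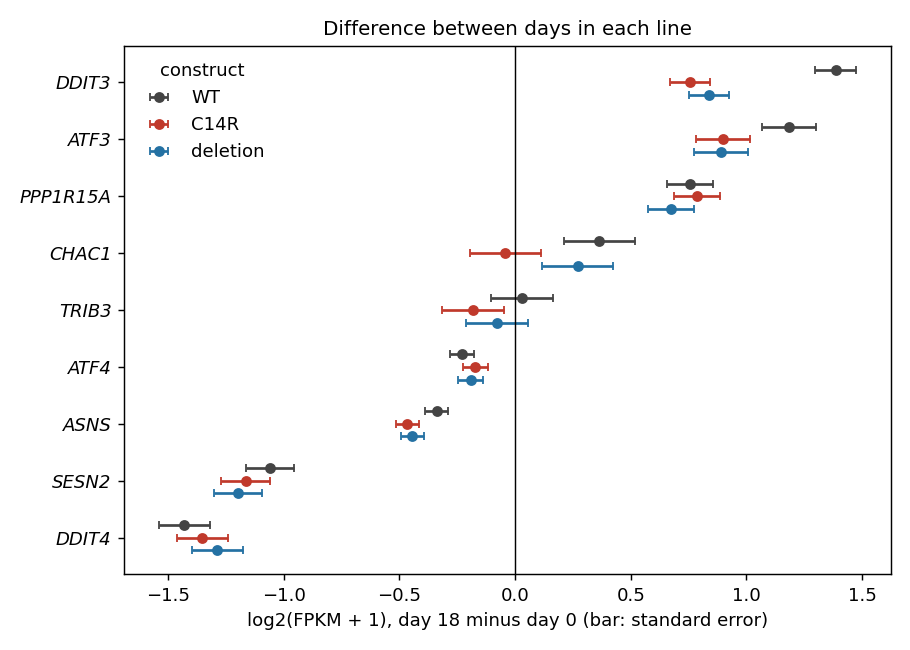
Day 18 minus day 0 in log2(FPKM + 1) (x axis) for the 9 members in the model (y axis), by construct, with bars for the standard error. DDIT3 runs from 0.76 in C14R to 1.39 in WT at the high end, and DDIT4 lies at the low end between -1.43 and -1.29.

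Of the 2 members of the feedback arm, PPP1R15A was higher at day 18 and TRIB3 overlapped between days. PPP1R15A (also called GADD34) encodes the regulatory subunit that brings protein phosphatase 1 to eIF2 and restores translation (GRCh38 chromosome 19, 48872392 to 48876057, plus strand). Its FPKM at day 0 were 12.3, 8.20 and 9.14 in WT, 10.1, 9.13 and 9.37 in C14R and 9.86, 12.0 and 9.84 in the deletion libraries. At day 18 they were 17.1, 17.4 and 16.9 in WT, 17.6, 17.4 and 16.6 in C14R and 18.5, 16.8 and 16.9 in the deletion libraries. All 9 day 18 libraries thus lay above all 9 of day 0, and the constructs overlapped at each day. The log2 day difference of PPP1R15A was 0.76 in WT, 0.79 in C14R and 0.67 in the deletion libraries (SE 0.10 each), and at day 18 the variants differed from WT by 0.00 (C14R) and 0.02 (deletion).

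TRIB3, a pseudokinase that is a CHOP target and holds back ATF4 and AKT (GRCh38 chromosome 20, 362835 to 397559, plus strand), overlapped between days in every line. WT libraries had 7.29, 7.01 and 6.94 FPKM at day 0, then 8.04, 7.31 and 6.46 at day 18. The widest spread was in C14R at day 18, with 4.70, 7.81 and 6.73 FPKM, where the lowest value came from the library that stood apart. Deletion libraries of day 18 had 6.02, 6.57 and 7.84 FPKM. The log2 day difference of TRIB3 was 0.03 in WT, -0.18 in C14R and -0.08 in the deletion libraries (SE 0.13 each), but 0.37, 0.14 and 0.25 with small RNA genes left out. Without C14R replicate 1 its difference from WT at day 18 went from -0.18 to 0.00.

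CHAC1, an enzyme that breaks down glutathione (GRCh38 chromosome 15, 40952962 to 40956519, plus strand), was measured at low levels. WT libraries had 1.98, 1.54 and 1.84 FPKM at day 0, then 2.99, 2.62 and 2.17 at day 18. C14R libraries had 1.43, 2.32 and 2.04 FPKM and then 1.13, 2.07 and 2.43, and deletion libraries 1.71, 1.63 and 2.11 and then 2.59, 2.23 and 2.37. Day 18 lay above day 0 without overlap in WT and deletion libraries and overlapped it in C14R. The log2 day difference of CHAC1 in C14R was -0.04 (SE 0.15), but 0.20 with small RNA genes left out. The C14R difference from WT at day 18 was -0.34 (SE 0.15), and without replicate 1 it was -0.14.

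The 2 members that serve amino acid supply had very different levels. ASNS encodes asparagine synthetase and is a standard target of ATF4 in amino acid shortage (GRCh38 chromosome 7, 97852118 to 97872542, minus strand). All its 20425 bases are shared with AC079781.5, a processed transcript on the same strand, and 123 with the pseudogene AC005326.1 on the other. Neither has values here, and how reads on shared bases were assigned is not given. WT libraries had 55.3, 49.8 and 51.1 FPKM at day 0, then 42.1, 38.2 and 42.5 at day 18. C14R libraries had 52.8, 49.6 and 53.6 FPKM and then 37.2, 38.0 and 36.8, and deletion libraries 49.1, 51.2 and 50.0 and then 36.2, 35.2 and 38.3. All day 18 libraries lay below all day 0 libraries. At day 18 the C14R libraries were all below the WT libraries, and the highest deletion library, at 38.3, passed the lowest WT library, at 38.2. The log2 day difference of ASNS was -0.34 in WT, -0.47 in C14R and -0.44 in the deletion libraries (SE 0.05 each), but 0.04, -0.10 and -0.07 with small RNA genes left out. Its differences from WT at day 18 were -0.13 in C14R and -0.16 in the deletion libraries.

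SLC7A11, the cystine importer of the xCT exchange system (GRCh38 chromosome 4, 138164097 to 138242349, minus strand), stayed near or under 1 FPKM. WT libraries had 0.816, 0.983 and 0.799 FPKM at day 0, then 0.634, 0.89 and 0.663 at day 18, so the days overlapped. C14R libraries had 1.08, 0.926 and 0.884 FPKM and then 0.362, 0.539 and 0.31, and deletion libraries 0.921, 0.93 and 0.831 and then 0.418, 0.551 and 0.476. All 6 variant libraries of day 18 lay below the 3 WT libraries, at 55.4% (C14R) and 66.1% (deletion) of the WT mean. The antisense gene SLC7A11-AS1 did not exceed 0.152 FPKM in any library. At this level and with unknown depth no test was made.

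SESN2 and DDIT4 both act against mTORC1, the kinase complex that promotes growth, and are induced by several stresses besides this pathway. Both were lower at day 18 in every library. SESN2 (GRCh38 chromosome 1, 28259527 to 28282491, plus strand) had 7.07, 7.20 and 6.71 FPKM in WT at day 0, then 2.81, 2.81 and 2.88 at day 18. C14R libraries had 6.63, 7.12 and 6.15 FPKM and then 1.93, 2.63 and 2.70, and deletion libraries 7.60, 7.07 and 8.71 and then 3.04, 3.25 and 2.25. The WT libraries of day 18 lay close together, above all C14R libraries and within the range of the deletion libraries. The log2 day difference of SESN2 was -1.06 in WT, -1.16 in C14R and -1.20 in the deletion libraries (SE 0.10 each). At day 18 the C14R difference from WT was -0.17, and -0.07 without the library that stood apart.

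DDIT4 (also called REDD1, GRCh38 chromosome 10, 72273920 to 72276036, plus strand) was the member furthest below its day 0 level in WT. It shares 1066 of its 2117 bases with DDIT4-AS1 on the other strand, which has no values here. WT libraries had 27.2, 24.7 and 22.8 FPKM at day 0, then 10.1, 7.34 and 8.57 at day 18. C14R libraries had 21.9, 24.5 and 24.0 FPKM and then 7.89, 7.57 and 10.5, and deletion libraries 23.6, 24.0 and 24.4 and then 8.41, 10.3 and 9.15. The constructs overlapped at both days, and the day 18 means were 34.8%, 36.9% and 38.6% of the day 0 means in WT, C14R and deletion libraries. The log2 day difference of DDIT4 was -1.43, -1.35 and -1.29 in the same order (SE 0.11 each), and in WT it was -1.07 with small RNA genes left out.

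Between constructs the members differed little at day 0. No member passed the threshold of limma in C14R against WT, where 0.0% of tested genes passed, or in deletion against WT, where 0.029% passed. At an unadjusted p under 0.05 the counts were 0 members in C14R, where 2.81% of tested genes reached it, and 1 in deletion, where 6.22% did. That member was DDIT3 (log2 difference 0.19). At day 18 the threshold was passed by 1 member in C14R, DDIT3, where 0.0363% of tested genes passed, and by 0 in deletion libraries, where 0.0725% passed. In a fit of only the 6 libraries compared, 0 members passed in C14R. The number of all tested genes that passed in that fit is not given here, so nothing about DDIT3 is read from it. An unadjusted p under 0.05 was reached by DDIT3, ASNS and CHAC1 in C14R, 3 members, where 11.1% of tested genes reached it. In deletion libraries it was reached by DDIT3, ASNS and ATF3, also 3, where 11.4% did.

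Of the 9 members in the model, 8 had a lower mean log2 level than WT in C14R at day 18 and 7 in deletion libraries, with median differences of -0.17 and -0.08, against 0.00 over all tested genes in both. In C14R 2 of the 8, DDIT4 and PPP1R15A, stood at 100% of the WT mean, and without replicate 1 the count was 6. All 3 C14R libraries lay below all 3 WT libraries for 4 members, DDIT3, ATF3, ASNS and SESN2, where 5.64% of tested genes were separated in that direction. The deletion libraries did so for 2, DDIT3 and ATF3, where 8.53% were. Since the members were chosen with these differences in view, nothing is read from the counts, and both variants share the same 3 WT libraries. WT replicate 1 of day 18 was the highest of the 9 libraries of that day for 4 of the 10 members (DDIT3, ATF3, TRIB3 and CHAC1), and C14R replicate 1 the lowest for 5 (DDIT3, ATF4, TRIB3, CHAC1 and SESN2).

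**Figure D3:**
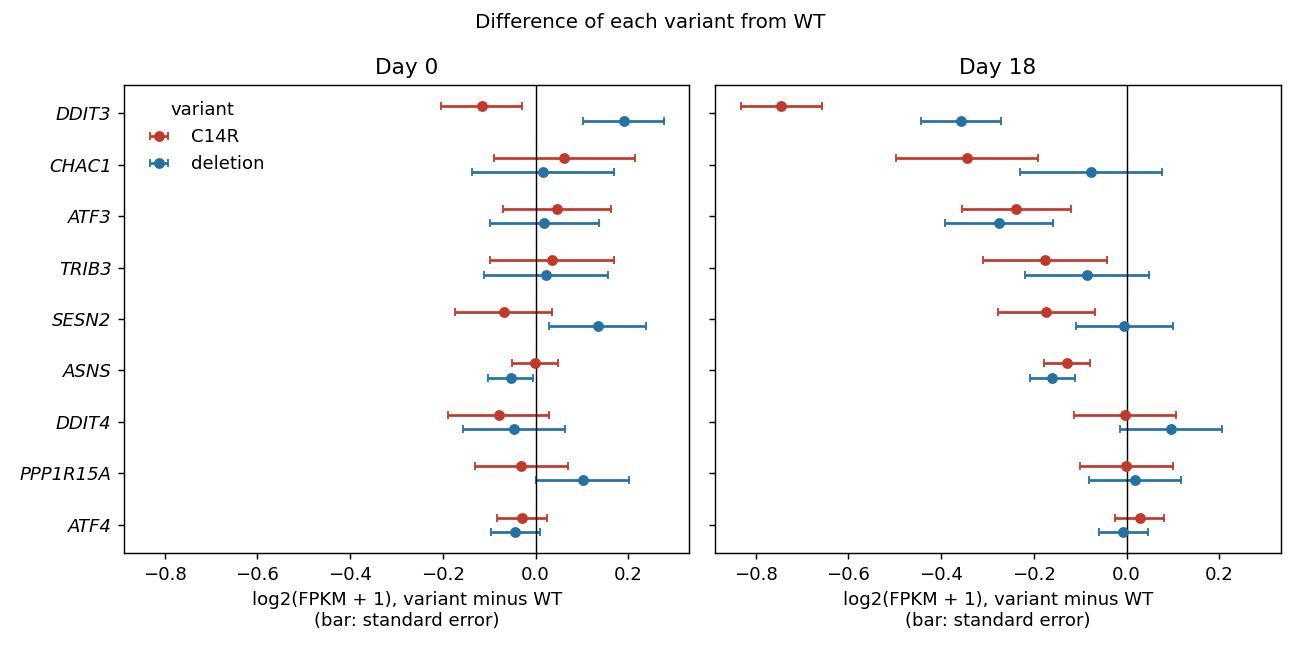
Variant minus WT in log2(FPKM + 1) (x axis) for the 9 members in the model (y axis), at day 0 on the left and day 18 on the right, with bars for the standard error. At day 18 DDIT3 lies at -0.74 in C14R and -0.36 in the deletion libraries, and ATF4, PPP1R15A and DDIT4 lie within 0.10 of WT.

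Between C14R and deletion no member passed limma's threshold at either day, where 0.058% (day 0) and 0.029% (day 18) of tested genes passed. The same held for the interactions of construct and day, where 0.0% of tested genes passed for C14R and 0.0145% for deletion. At an unadjusted p under 0.05 there was 1 member, DDIT3, in each of these 4 comparisons. The share of all tested genes at that p was 9.84% and 11.2% for C14R against deletion at day 0 and day 18, and 5.73% and 7.36% for the C14R and deletion interactions.

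The other genes of the pathway were followed in 8 lists with 127 symbols in the table, of which 118 were tested. In WT 94 of the 118 changed between days by limma, 34 rising and 60 falling, or 79.7%, beside 72.2% of all tested genes. In C14R 28 rose and 64 fell, or 78.0%, beside 72.9% of all tested genes. In deletion libraries 30 rose and 64 fell, or 79.7%, beside 73.0%. Their median log2 difference was -0.22 in WT, -0.27 in C14R and -0.29 in the deletion libraries. With small RNA genes left out the split turned to 58 rising and 31 falling in WT, 50 and 35 in C14R and 52 and 36 in the deletion libraries, while the lists' median in WT lay 0.24 below that of all genes on the deposited scale and 0.22 below it on the other. The list counts that follow are for WT, with the split without small RNA genes after each. Beside them, 38.2% of all tested genes rose and 34.0% fell in WT. Without small RNA genes, 79.2% of all passing genes in WT were rising.

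The kinases and machinery of eIF2 had 3 of 20 genes rising and 11 falling, or 9 and 5 without small RNA genes. Among the kinases EIF2AK2 (PKR) rose by 0.52 (limma adjusted p = 2.07e-07) and EIF2AK3 (PERK) by 0.17 (adjusted p = 0.0309), a call lost in 7 of the 17 other settings run on it. EIF2S3, the gamma subunit of eIF2, fell by 0.90, GCN1, an activator of the kinase GCN2, by 0.80, and EIF2B1, a subunit of the exchange factor for eIF2, by 0.75. The bZIP partners and paralogs of the members had 5 of 12 rising and 3 falling, or 6 and 1. The sestrins differed among themselves, since SESN3 rose by 0.95, to 44.1 from 22.4 FPKM, and SESN1 fell by 1.25, to 9.66 from 24.4 FPKM. TRIB2, a paralog of TRIB3, rose by 0.82, and BATF3 rose by 1.66 from a mean of 0.123 FPKM at day 0.

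Amino acid synthesis and one-carbon genes had 3 of 16 rising and 11 falling, or 6 and 6 without small RNA genes. SHMT2 fell by 1.28, PSAT1, an enzyme of serine synthesis, by 1.24 and MTHFD1L by 1.21, and ALDH1L2, a mitochondrial folate enzyme, rose by 0.86. ASNS, the member of this group, was lower by a smaller amount than the first 3. Amino acid transporters had 3 of 10 rising and 5 falling, or 5 and 3. SLC1A5, a glutamine transporter, fell by 1.45, to 9.57 from 27.8 FPKM, while SLC1A4 rose by 0.81 and SLC3A2, the partner chain of SLC7A11, by 0.63. The aminoacyl-tRNA synthetases, a further set of known ATF4 targets, had 3 of 12 rising and 8 falling, or 6 and 4. LARS fell by 0.84 and WARS rose by 0.43.

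The other known targets of ATF4 or CHOP had 5 of 18 rising and 11 falling, or 7 and 9 without small RNA genes. MAP1LC3B, an autophagy protein, rose by 1.33, to 108.5 from 42.6 FPKM, and ADM2 by 1.07. The largest falls of this list were in genes that answer to several other pathways as well: MYC, a growth factor-responsive transcription factor, fell by 3.91, to 0.451 from 20.75 FPKM, and CDKN1A, a cell cycle inhibitor, by 2.75. BBC3, a death-promoting member of the BCL2 family, fell by 1.94. DDIT3 and ATF3 were higher at day 18 beside a list in which more genes fell than rose, on the deposited scale and on the other.

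The ATF6 and IRE1 branches of the unfolded protein response had 9 of 20 rising and 7 falling, or 14 and 2 without small RNA genes. On that second scale 87.5% of the passing genes of this list were rising in WT, beside 79.2% of all passing genes. The bZIP list (85.7%) and the NRF2 targets (83.3%) also lay above that share in WT. In the variants the ATF6 and IRE1 list lay below it, at 70.6% beside 77.9% in C14R and 66.7% beside 78.4% in the deletion libraries. In WT ERN1, which encodes IRE1, rose by 0.69 and CANX by 0.52. The chaperone gene HSPA5 (BiP) fell by 0.50, CALR by 0.55 and PDIA6 by 0.64. At their smallest over the other scalings and model settings these differences were -0.11, -0.16 and -0.25. HSPA5 lost its call in 1 of the 17 other settings run on it. NRF2 targets, which include redox genes that SLC7A11 is often grouped with, had 3 of 10 rising and 4 falling, or 5 and 1. NQO1 fell by 1.04 and NFE2L2, which encodes NRF2, rose by 0.38. TXNRD1 fell by 0.37, and its difference was 0.01 with small RNA genes left out.

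**Figure D4:**
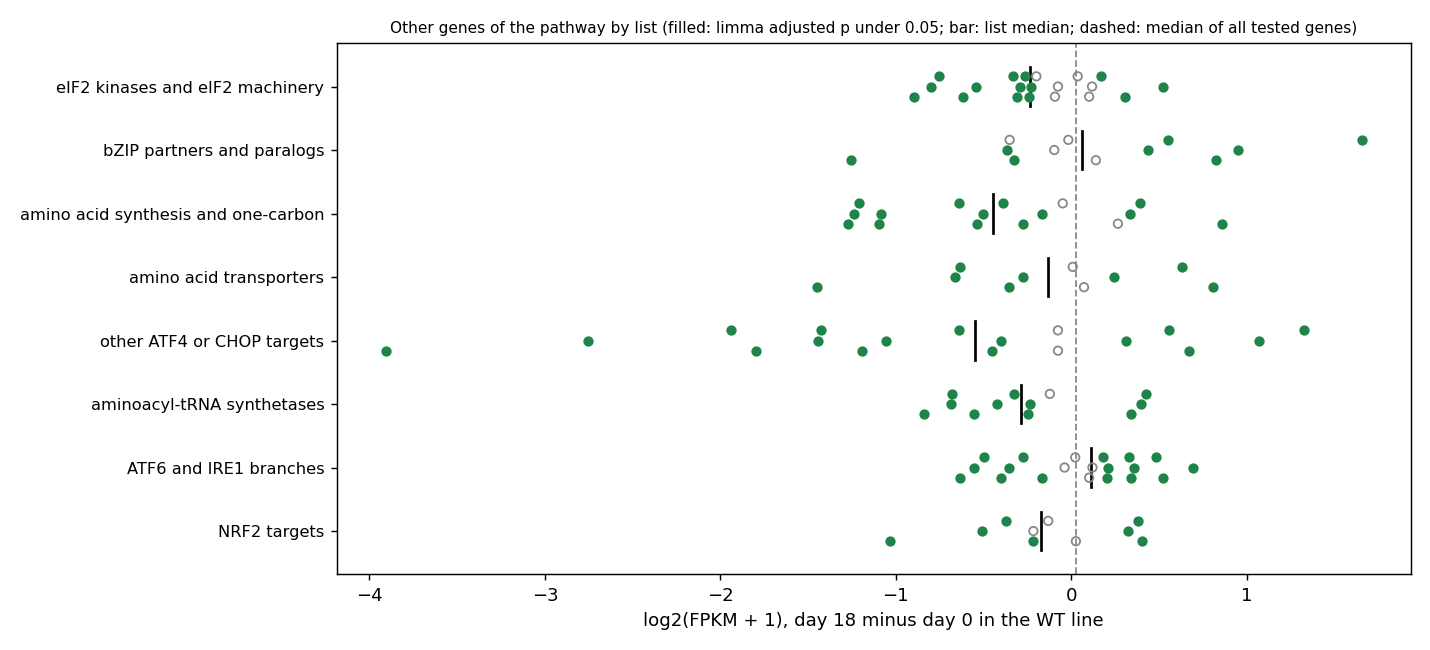
Log2 differences between days in WT (log2(FPKM + 1), day 18 minus day 0) of the tested genes in each pathway list (y axis), 1 point a gene, filled where it passed limma's threshold, with a bar at the list's median and a dashed line at the median of all tested genes. Points lie on both sides of 0 in every list, and the lowest is MYC at -3.91.

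Against WT none of the 118 other pathway genes passed limma's threshold in either variant at either day. At an unadjusted p under 0.05 there were 27 in C14R and 23 in the deletion libraries at day 18, where 11.1% and 11.4% of all tested genes reached it. The ATF6 and IRE1 list held 7 and 9 of them. The median difference of the lists was -0.07 in C14R and -0.04 in the deletion libraries, against 0.00 for all tested genes in both. With C14R replicate 2 of day 18 left out, 9 pathway genes passed in C14R, 8 of them lower (HSPA5, PDIA4, CALR, SHMT2, SLC1A5, SLC3A2, WARS and TNFRSF10B) and VEGFA higher, while the count over all tested genes went from 5 to 126. With C14R replicate 1 of day 18 left out, 2 passed in deletion libraries, HSP90B1 and PDIA6, both lower, while the count over all tested genes went from 10 to 51.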

How the data were processed

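RNA-seq libraries of SH-SY5Y cells were made from TRIzol-extracted RNA with the Ribo-Zero and NEBNext Ultra kits, per the labels' protocols. The authors deposited FPKM, 1 value per symbol and library, in 1 table. TopHat2, STAR, Cufflinks 2.2.1 and hg38 are named in the submitters' processing notes, with no order or role, and the use of strand is not given in the sources used here. Of the 26372 symbols, 4960 were at 0 in all 18 libraries. No 2 libraries held identical values.

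Tests used log2(FPKM + 1), a pseudocount of 1, which understates differences of low genes, and the 13785 genes with a mean of at least 1 FPKM. The 6 group means were fitted over all 18 libraries with limma 3.58.1 (R 4.3.3, empirical Bayes with trend). P-values were Benjamini-Hochberg adjusted within each of 11 comparisons, with a threshold of 0.05. The script was tested on simulated data. Tables and figures used Python 3.11.15, pandas 2.3.3 and matplotlib 3.10.9. FPKM give no depth, so no counting error could be given.

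The members and lists were chosen with earlier results of these data known. Named were all members, ZNHIT3, and per list and comparison up to 3 of the largest rises and falls past the threshold, with a few others given by value, and the 5 genes most like DDIT3. MARS was added as a gene overlapping DDIT3, and MBD6, which also overlaps it, was not compared by group. Other settings tried were 2 further scalings, rescaling without small RNA genes, a filter at 5 FPKM or none, a pseudocount of 0.1, array weights, no trend, a replicate block, a fit of only the libraries compared, and each library left out. Gene positions came from GENCODE release 29 on GRCh38 and promoters from RefSeq on GRCh38.p14. Of the marker genes, 1 is not reported here.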

Additional observations from a re-analysis of the deposited data

Results flagged for a closer look

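DDIT3 in deletion libraries lay on opposite sides of WT at the 2 days. At day 0 all 3 deletion libraries (8.25 to 9.55 FPKM) lay above all 3 WT libraries (7.21 to 8.20), a log2 difference of 0.19, and at day 18 all 3 (15.8 to 18.2) lay below all 3 WT libraries (20.2 to 24.8), a difference of -0.36. The change between these differences, the interaction of construct and day, was -0.55 and did not pass limma's threshold (adjusted p = 0.305).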

How the results depend on the processing

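The counts of members past the threshold between days ranged from 6 to 8 over the other settings and from 7 to 8 with each library left out, in each line. The share of all tested genes that passed moved as well. It was 72.2%, 72.9% and 73.0% in WT, C14R and deletion, and 78.6%, 77.9% and 78.3% with small RNA genes left out. Nothing about the members is read from these ranges. Leaving out small RNA genes turned the sign of ATF4 between days (0.16 in WT, 0.20 in C14R, 0.18 in deletion), of TRIB3 in C14R (0.14) and deletion (0.25), of CHAC1 in C14R (0.20), of ASNS in WT (0.044) and of TXNRD1 in WT (0.012), because the rescaling shifts all genes. When the fit held just the libraries being compared, 0 members passed in C14R against WT at day 18. The number over all tested genes in that fit is not given here. The log2 difference of DDIT3 in C14R against WT at day 18 ranged from -0.83 to -0.65 with each library left out. Without WT replicate 1 of day 0 the day difference of PPP1R15A in WT was 0.91. Other pathway genes past the threshold between days numbered 87 to 96 in WT, 88 to 98 in C14R and 87 to 103 in deletion libraries with each library left out. The share of all tested genes between days in those fits is not given here, so nothing is read from these numbers. In C14R against WT at day 18, where 0 passed, array weights gave 7 (205 over all tested genes, from 5) and leaving out a library 0 to 9 (126 over all tested genes without C14R replicate 2), and in deletion against WT a pseudocount of 0.1 gave 1 (23 over all tested genes, from 10), array weights 3 (95) and leaving out a library 0 to 2 (51 without C14R replicate 1). In C14R against deletion at day 0 array weights gave 1 (95 over all tested genes, from 8). The cause was not tested. The replicate number as a block gave 8, 7 and 7 members between days in WT, C14R and deletion. It gave 1 in C14R against WT at day 18, and 94, 93 and 92 other pathway genes between days. It moved none of these counts by over 1.5 times, and the share of all tested genes under the block is not given here. The numbers do not pair the libraries: deviations of libraries with the same number correlated at -0.36 to 0.17, and 2 of 18 libraries correlated best with their own number. Over all settings, 383 of the counts stayed within 1.5 times and 7 did not. Counts that were 0 and stayed 0 are among the 383, so this tally says little about the comparisons between constructs. Depth is unknown, which limits CHAC1 and SLC7A11 most, the members with the lowest values.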
